A study of Mus musculus with 14 samples.

Results

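The 10 genes examined here belong to the transcriptional response to amino acid shortage: Atf4, Atf3, Ddit3, Trib3, Asns, Chac1, Sesn2, Ddit4, Psat1 and Nupr1. The list was given by name and was chosen with earlier results of these data known. Each gene was assigned the ChIP-seq peaks that overlapped its RefSeq span (GRCm38) extended by 10 kb on each side. They are 10 of 21787 protein-coding genes, and 96 of 158488 peaks in the 14 lists fell into their windows. ChIP-seq (chromatin immunoprecipitation with sequencing) reads the DNA that an antibody pulls down with a factor, and the lists came from 5 populations sorted from differentiating mouse embryonic stem cells of the 129 strain that carry a Brachyury-GFP reporter. All populations share that reporter, and no group was described as deprived of amino acids. Mesoderm (MES) was sorted as Brachyury-GFP+ Flk1- cells, hemangioblasts (HB) as Brachyury-GFP+ Flk1+ cells, hemogenic endothelium (HE) as Tie2+ cKit+ CD41- cells, hematopoietic progenitors (HP) as CD41+ cells and macrophages (MAC) as CD11b+ cells.

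C/EBPβ, which binds DNA through a basic leucine zipper, was profiled at each of the 5 stages. PU.1, the ETS factor of myeloid cells encoded by Spi1, was mapped in HP and MAC, RUNX1 in HP and MAC, GATA2 in HB and HP, GATA1 and GFI1B in HP and ELK4 in MES. Each combination of factor and stage was 1 list from 1 sample, so that no replicates exist, no test was made and the lists are described side by side. Every peak was 400 bp wide and came without a height or score. The lists held between 72 peaks (MAC RUNX1) and 82866 peaks (MAC PU.1), and the HE C/EBPβ list, from few cells to which carrier mRNA and histone 2B had been added, held 132. List length depended on thresholds set by eye for each list. Of the C/EBPβ lists, HE had the strictest p-value cutoff and MAC the loosest, and the number of merged sequencing runs differed. Differences between stages in the counts below cannot be told apart from these settings. Each share below is therefore given beside the share of all coding genes with a peak in the same list. The labelled cell types could not be checked against marker genes, because the files hold peak positions and no expression values.

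When amino acids run short, uncharged tRNA activates the kinase GCN2, which phosphorylates the initiation factor eIF2α, and translation of Atf4 mRNA then rises while most protein synthesis falls. ATF4 binds as a dimer, often with a C/EBP factor, to a composite sequence called the C/EBP-ATF response element (CARE), and other stresses reach ATF4 through further eIF2α kinases. In this group, Atf4, Atf3 and Ddit3 (CHOP) encode basic leucine zipper factors, Trib3 a pseudokinase that binds and restrains ATF4, Asns and Psat1 enzymes of asparagine and serine synthesis, Chac1 an enzyme that degrades glutathione, Sesn2 and Ddit4 (REDD1) inhibitors of mTORC1 signalling, and Nupr1 a small stress-induced chromatin protein.

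CARE was searched as TGATGNAA on both strands. The 8 matches within 500 bp of the start sites of the 10 genes are shown because they lie under or near the C/EBPβ peaks described below. Each line gives 30 bases in the direction of TGATGNAA, the match is in capitals, and the number is its distance in bp from the RefSeq start site of the gene (negative upstream). The sequence is the RefSeq reference (GRCm38.p6), which is of strain C57BL/6J and not of the 129 cells used.
Ddit3, -297, chr10:127290481-127290510, minus strand: gggggcggggaTGATGCAAtgtttggcaac
Chac1, -189, chr2:119351038-119351067, minus strand: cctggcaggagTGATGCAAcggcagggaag
Atf3, 63, chr1:191183255-191183284, minus strand: tttaaaaggggTGATGCAAcgcgctcccag
Atf3, -107, chr1:191183425-191183454, plus strand: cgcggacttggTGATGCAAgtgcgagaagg
Trib3, 17, chr2:152344028-152344057, plus strand: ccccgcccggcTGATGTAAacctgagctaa
Nupr1, -107, chr7:126625562-126625591, plus strand: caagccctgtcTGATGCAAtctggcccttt
Asns, -20, chr6:7693214-7693243, minus strand: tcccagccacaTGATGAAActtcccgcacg
Sesn2, -301, chr4:132510742-132510771, plus strand: ttagggctgcgTGATGAAAcgggacttcac
The matches at Ddit3, Chac1, Atf3 and Nupr1 read TGATGCAA, that at Trib3 reads TGATGTAA, and those at Asns and Sesn2 read TGATGAAA. The Atf3 match at 63 and the Trib3 match lie in exons ahead of the coding sequence, and the others lie outside exons. Atf4, Ddit4 and Psat1 had no match to these letters within 500 bp.

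C/EBPβ peaks fell at the same 4 of the 10 genes in MES and in HP, at 2 of those 4 in HB, at none in HE and at all 10 in MAC. For the MES and HB C/EBPβ samples the study's PCR check listed no enrichment, and they were sequenced regardless. Enrichment was listed for the HE, HP and MAC C/EBPβ samples. In MES the 4 genes were Atf3, Ddit3, Trib3 and Chac1, against 4.96% of coding genes (1080 genes) with a MES C/EBPβ peak in the same window. In HB they were Ddit3 and Trib3, against 3.2% of coding genes. The Ddit3 peak lies nearer to a start of Mbd6, and by the nearest coding start the count in HB was 1 (Trib3). In HE no gene of the 10 had a peak, and 0.477% of coding genes did. In HP the genes were again Atf3, Ddit3, Trib3 and Chac1, against 11.3% of coding genes. In MAC all 10 genes had a peak, but so did 67.9% of coding genes. The shares of the 10 genes in MES, HB and HP were thus 40%, 20% and 40%, each above that of coding genes, and the 100% in MAC stood beside a share that was high for all genes. Because the genes were chosen with earlier results of these data known, these differences are a description and no independent comparison.

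**Figure D1:**
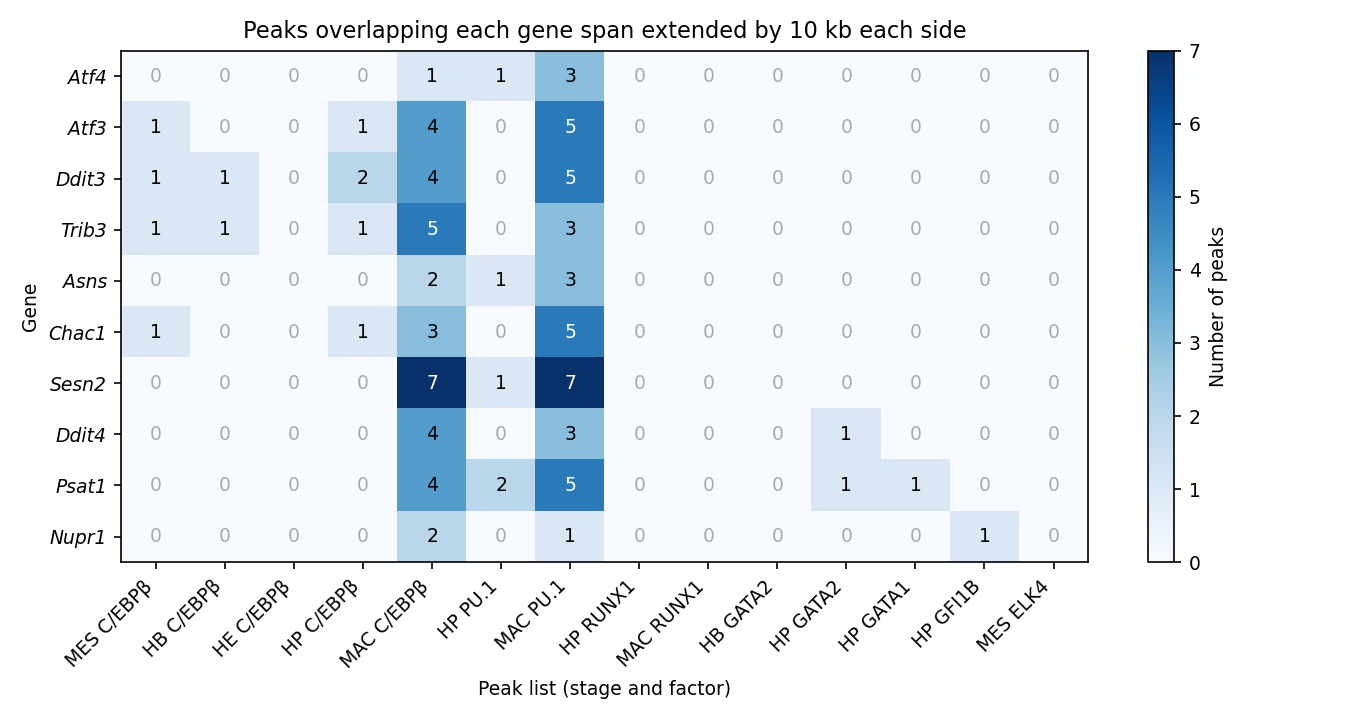
Number of peaks overlapping each gene span extended by 10 kb on each side (rows, genes) in each of the 14 lists (columns, stage and factor), 1 sample per list. The C/EBPβ columns of MES and HP mark the same 4 genes, HP PU.1 marks Atf4, Asns, Sesn2 and Psat1 in this window, and only the MAC C/EBPβ and MAC PU.1 columns mark all 10.

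Counted jointly, 4 of the 10 genes had C/EBPβ in MES, HP and MAC, against 3.26% of coding genes. Ddit3 and Trib3 had it in MES, HB, HP and MAC, against 1.86% of coding genes. None had it at all 5 stages, which was the case for 31 coding genes (0.142%). These joint counts are not independent of the single ones. The windows of the 10 genes had a median length of 26068 bp, against 37198 bp for coding genes, and those of Asns, Sesn2 and Psat1 were longer than the latter.

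**Figure D2:**
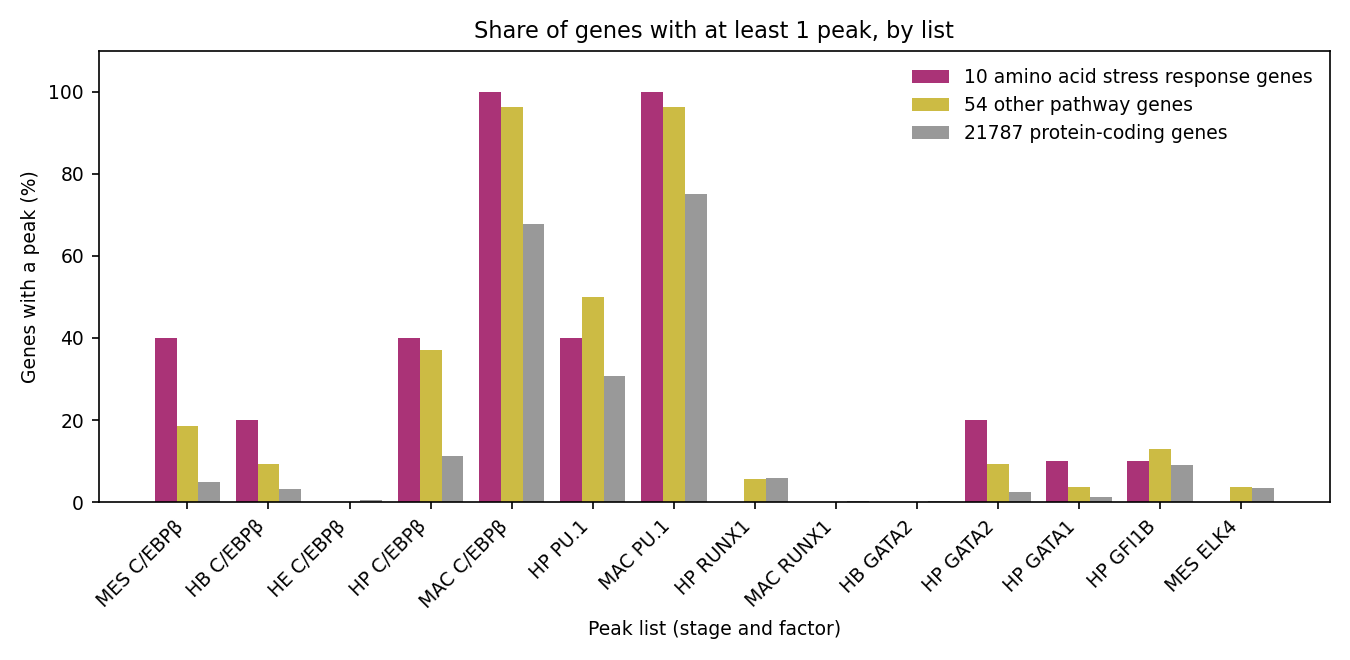
Share of genes with at least 1 peak (%, vertical axis) in each list (horizontal axis), for the 10 amino acid stress response genes, 54 other genes of the pathway and all 21787 coding genes; 1 sample per list. In MES, HB and HP C/EBPβ the first bar stands at 40%, 20% and 40%, above 4.96%, 3.2% and 11.3% of coding genes.

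At Ddit3, which encodes CHOP, a factor that dimerises with C/EBP proteins, the C/EBPβ peak was centred at the same place at 4 stages. The centre lay 307 bp upstream of the start site in MES, 308 bp in HB, 310 bp in HP and 312 bp in MAC, a spread of 5 bp. The merged region, chr10:127290281-127290796, was found in 5 lists, the fifth being MAC PU.1, whose centre lay 196 bp upstream. This stretch also belongs to Mbd6, a gene on the other strand: the C/EBPβ centres fell in an Mbd6 intron, and the nearest start site was one of Mbd6, 161 to 166 bp away. The peak cannot be given to one of the 2 genes from its position. HP and MAC had a further C/EBPβ peak near Ddit3, centred 1366 bp and 1403 bp upstream, and MAC had 2 more.

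The 120 bases around the MES centre at Ddit3 (chr10:127290426-127290545, plus strand) are shown because they hold a C/EBP match and a CARE match 2 bases apart, both in capitals, the C/EBP match (TTGCNNAA) first and the CARE match on the opposite strand after it.
Ddit3 centre: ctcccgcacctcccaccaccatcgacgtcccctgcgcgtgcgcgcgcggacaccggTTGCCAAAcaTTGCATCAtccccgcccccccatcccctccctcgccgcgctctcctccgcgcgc
The CARE match lay 10 bp from the peak centre in MES, 11 bp in HB, 13 bp in HP and 15 bp in MAC, and the C/EBP match lay 0, 1, 3 and 5 bp from it. The ETS sequence CCGGAAGT lay at the centre of the MAC PU.1 peak of the same region, 111 bp from the MES C/EBPβ centre.

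At Chac1, the glutathione-degrading enzyme, the C/EBPβ centre lay 192 bp upstream of the start in MES, 176 bp in HP and 208 bp in MAC, a spread of 32 bp. The merged region, chr2:119350834-119351265, lay outside annotated genes at its centre, was found in these 3 C/EBPβ lists alone, and was the shared region of the 4 genes that held no PU.1 peak. The 120 bases around the MES centre (chr2:119350990-119351109, plus strand) hold a CARE match on the opposite strand, in capitals, and no C/EBP match.
Chac1 centre: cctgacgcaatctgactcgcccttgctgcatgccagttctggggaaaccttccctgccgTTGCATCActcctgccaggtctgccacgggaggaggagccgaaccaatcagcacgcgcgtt
This match lay 3 bp from the centre in MES, 13 bp in HP and 19 bp in MAC.

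At Trib3, the pseudokinase, the C/EBPβ centre lay 10 bp upstream of the start in MES, 16 bp downstream in HB, 20 bp upstream in HP and 21 bp upstream in MAC. The spread was 37 bp in the region chr2:152343783-152344280, which was also found in MAC PU.1. The CARE match of Trib3 lay 1 bp from the HB centre and 27, 37 and 38 bp from the MES, HP and MAC centres. Atf3, a factor induced by ATF4 in many cell types, had its C/EBPβ centre 37 bp downstream of the start in MES, 31 bp in HP and 35 bp in MAC, a spread of 6 bp (region chr1:191182851-191183501, with MAC PU.1). Its nearer CARE match lay 26, 32 and 28 bp from those centres, and its second match 138 to 144 bp. Neither promoter peak held a C/EBP match.

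**Figure D3:**
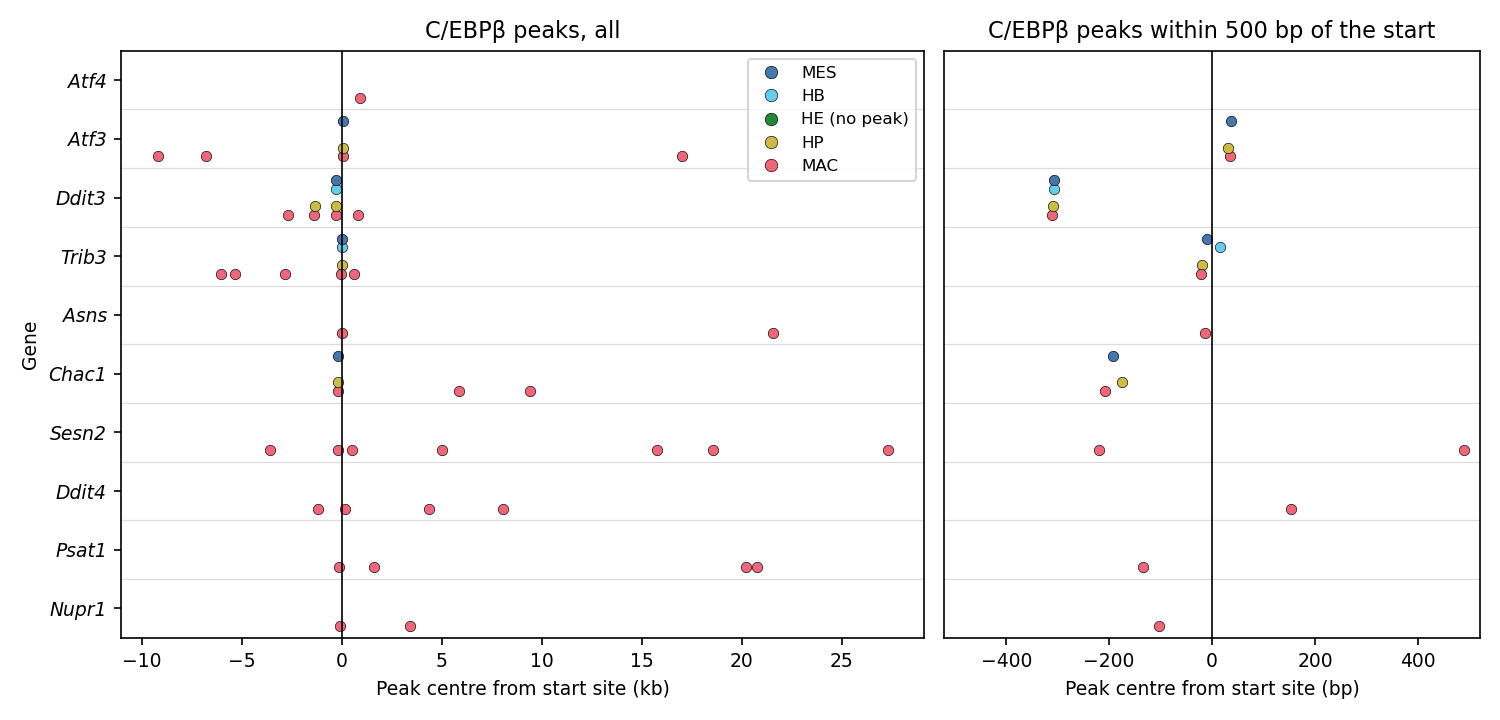
Distance of each C/EBPβ peak centre from the RefSeq start site of the gene, in kb for all peaks (left) and in bp for those within 500 bp (right); points are single peaks, coloured by stage, with small vertical offsets by stage. At Atf3, Ddit3, Trib3 and Chac1 the MES, HB, HP and MAC centres within 500 bp lie within 37 bp of each other at each gene, and the points of the other 6 genes are of MAC only.

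At the genes with a C/EBPβ peak in MES, HB or HP, the nearest centre lay near the start. In MES the nearest C/EBPβ centre lay within 500 bp of the start at all 4 genes with a peak, against 19.7% of the coding genes with a MES C/EBPβ peak in the window. In HB this held for 2 of 2 genes against 19.2%, and in HP for 4 of 4 against 17.8%. In MAC it held for 9 of 10 against 29.1%, the exception being Atf4 at 902 bp. The windows of Atf3, Ddit3, Trib3 and Chac1 (23085 to 33038 bp) were shorter than the coding median of 37198 bp, and longer windows admit peaks farther from the start. The Ddit3 centre also lies nearer to a start of Mbd6. Where centres of overlapping peaks were compared between stages, the MES and MAC centres of the 4 genes differed by 2 to 16 bp (median 8 bp), and the median over all 781 overlapping peaks was 15 bp. From HB to MAC the 2 genes differed by 4 to 37 bp (median 20.5 bp, against 15 bp over 492 peaks). The medians from MES to HB, MES to HP and HP to MAC were 13.5, 8 and 4 bp, against 15, 19 and 19 bp.

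The early peaks of the 10 genes were also found later. All 4 MES peaks overlapped an HP peak, against 47.6% of the MES list (95% exact interval 44.7 to 50.5%), and all 4 overlapped a MAC peak, against 66.4% (63.6 to 69.1%). All 4 lay within 500 bp of a start, as did 191 of the 1177 peaks of the MES list. The paper reports that sites open at every stage, mostly CpG island promoters, held most C/EBPβ binding before HP and MAC. Sharing among promoter peaks alone was not computed, and the part of promoter position was not tested. In HB, 2 of the 4 MES peaks recurred, against 31.8% of the list. All 5 HP peaks overlapped a MAC C/EBPβ peak, where 91.4% of the HP list did so. The reverse shares were small in the long list: 4 of 36 MAC C/EBPβ peaks at the 10 genes overlapped a MES peak, against 1.41% of the MAC list. Intervals of this kind cover counting error only.

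The CARE letters were found in all 4 MES C/EBPβ peaks of the 10 genes, against 10.2% of the MES list (8.53 to 12.1%). They were in 2 of 2 HB peaks against 8.53%, in 4 of 5 HP peaks against 11.9% and in 13 of 36 MAC peaks against 12.8%. Of the C/EBPβ peaks within 500 bp of any coding start, 24 of 191 held CARE in MES (12.6%) and 11 of 123 in HB (8.94%). In HP 45 of 396 did (11.4%), and in MAC 231 of 3920 (5.89%). The C/EBP letters TTGCNNAA were in 1 of 4 MES peaks of the 10 genes (Ddit3) against 61.3% of the list, in 1 of 2 HB peaks against 59.2%, in 1 of 5 HP peaks against 64.0% and in 9 of 36 MAC peaks against 41.9%. Among all peaks within 500 bp of a coding start the C/EBP share was 61.3% in MES, 67.5% in HB, 49.5% in HP and 28.3% in MAC. At the 10 genes the stricter TGATGCAA was in 3 of 4 MES peaks (6.20% of the list) and 1 of 2 HB peaks (5.73%). It was in 3 of 5 HP peaks (7.33%) and 7 of 36 MAC peaks (5.31%). Stricter C/EBP letters were in 0 of their MES, HB and HP peaks (35.8%, 38.6% and 32.6%) and 5 of their MAC peaks (13.2%). These are counts over few peaks that share loci between stages, and a match is a description of the letters. CARE is the element of the response for which the genes were listed, so its share here is not independent of that choice.

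**Figure D4:**
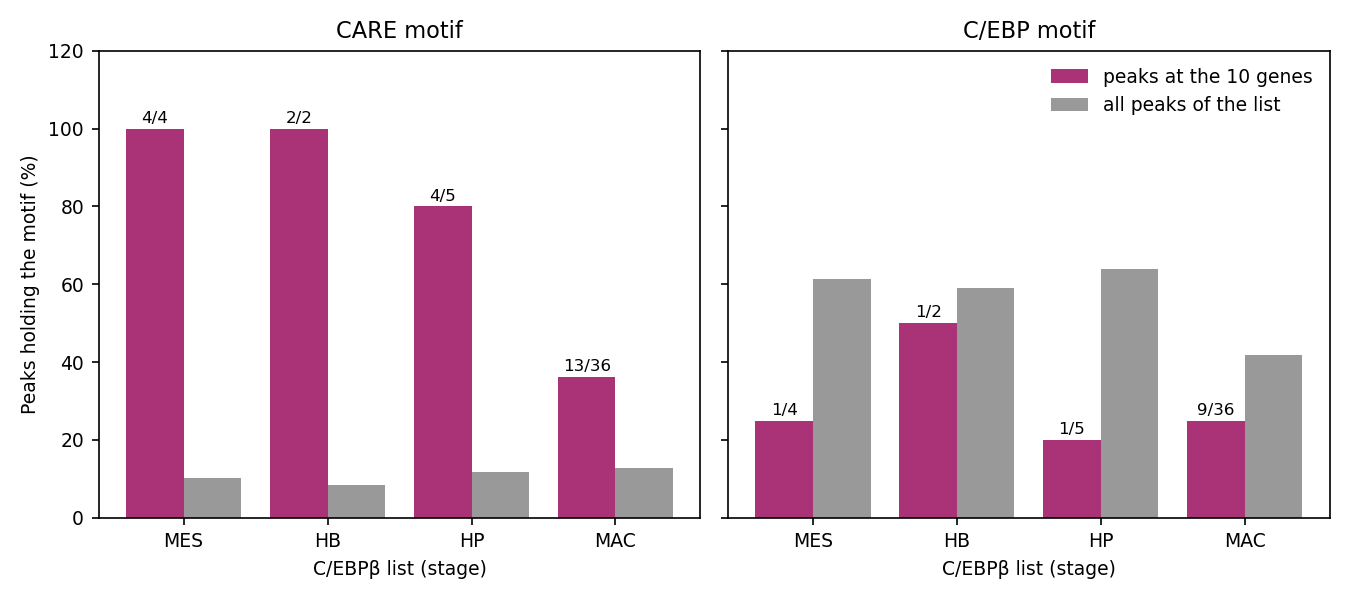
Share of C/EBPβ peaks (%, vertical axis) that hold the CARE (left) or the C/EBP letters (right) in MES, HB, HP and MAC, for peaks at the 10 genes (fractions above the bars) and for the whole list; bars start at 0 and each list is 1 sample. CARE is in 4 of 4 MES peaks against 10.2% of the list, and C/EBP in 1 of 4 against 61.3%. CARE is the element of the response for which the 10 genes were listed.

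The nearest CARE match lay 3 to 27 bp from the centre in the MES peaks, 1 to 11 bp in HB and 13 to 37 bp in HP. Over the 120 MES peaks with a match the median distance was 31.5 bp, and over the 322 HP peaks 36.5 bp. Promoters were also searched without regard to peaks. In the 400 bp around the start, 5 of the 10 (Atf3, Trib3, Asns, Chac1 and Nupr1) had a match, against 4.34% of coding promoters, and none had a C/EBP match, against 11.9%. The 10 genes were listed for the response that acts through CARE, so a share above that of coding promoters is no independent result.

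**Figure D5:**
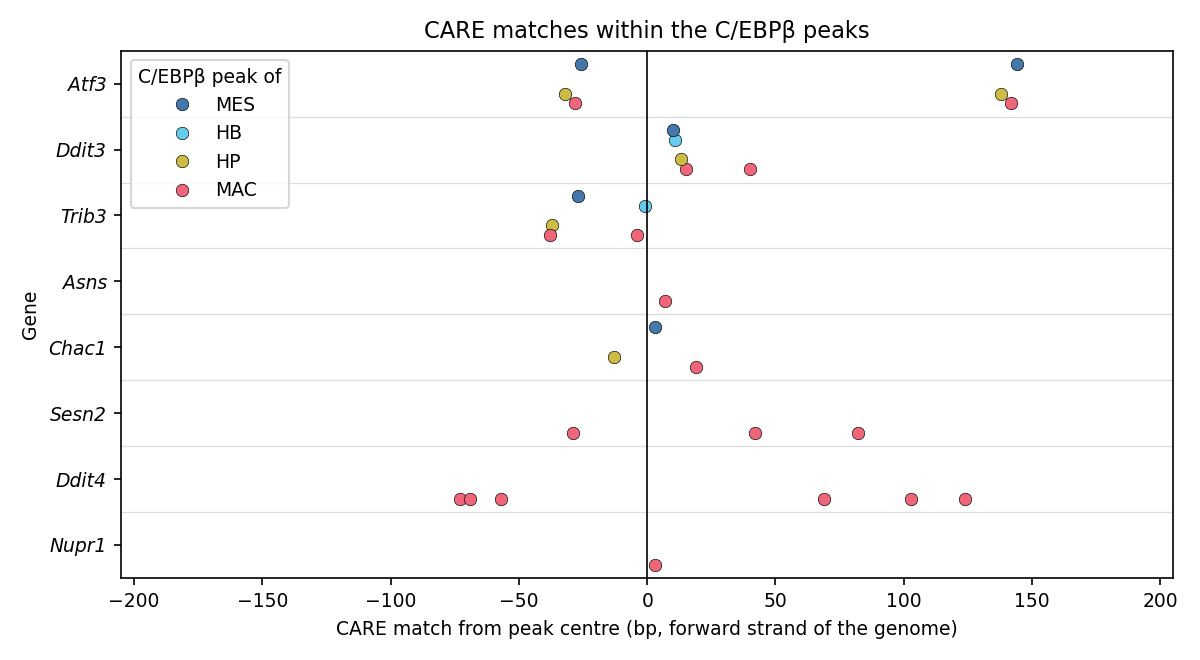
Distance of every CARE match from the centre of the C/EBPβ peak that holds it (bp along the forward strand of the genome), by gene and coloured by stage. At Ddit3 and Chac1 every match of the promoter peak lies within 19 bp of the centre, and the matches at Ddit4 lie 57 bp or more away.

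The other 6 genes had C/EBPβ in MAC and at no earlier stage. At Asns, the asparagine synthetase, the MAC centre lay 13 bp upstream of the start and 7 bp from the CARE match. At Nupr1 it lay 104 bp upstream and 3 bp from the CARE match, inside an intron of the non-coding gene Gm39087. At Sesn2, with 7 MAC C/EBPβ peaks the gene with the most, the nearest centre lay 219 bp upstream and 82 bp from the promoter match, and 2 further peaks, 490 bp downstream and 3616 bp upstream, held TGATGCAA. At Ddit4 the nearest centre lay 154 bp downstream without a CARE match, while the peaks 8049 bp downstream and 1181 bp upstream held 3 matches each. At Psat1 the nearest centre lay 135 bp upstream and at Atf4 902 bp downstream, in an Atf4 intron, where the match was the C/EBP sequence TTGCACAA, 17 bp from the centre. Asns and Nupr1 thus had a CARE under a macrophage C/EBPβ peak centre, as the 4 early genes did. Neither had a C/EBPβ peak in the MES, HB or HP lists. At Sesn2 the match in the peak 490 bp downstream lay 29 bp from the centre of that peak. Without peak heights, the absence of a peak in a short list means only that none passed its threshold.

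The 120 bases upstream of Asns (chr6:7693210-7693329, minus strand) are shown for comparison with Ddit3 and Chac1, with the CARE match in capitals.
Asns upstream: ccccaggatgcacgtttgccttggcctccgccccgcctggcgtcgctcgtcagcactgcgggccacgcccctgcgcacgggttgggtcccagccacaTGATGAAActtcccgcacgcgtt

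PU.1 in HP fell at 4 of the 10 genes, Atf4, Asns, Sesn2 and Psat1, against 30.8% of coding genes. None of the 10 genes had both C/EBPβ and PU.1 in HP, as 6.17% of coding genes had, so that 0 of 10 is no result about the group. By the nearest coding start Atf3 had both (6.36% of coding genes), and with a 50 kb window the 4 genes with C/EBPβ did (18.2%). In that wider window HP PU.1 met all 10 genes (53.1%). None of the 5 HP PU.1 peaks overlapped an HP C/EBPβ peak (3.71% of the HP PU.1 list did). Of the 4 genes 1, Psat1, had its nearest PU.1 centre within 500 bp of the start, at 110 bp downstream, against 15.0% of the coding genes with an HP PU.1 peak. At Asns the centre lay 2498 bp downstream of the start and at Sesn2 15717 bp downstream, both within introns. The Atf4 window was met through a peak 88 bp from the start of the neighbouring gene Rps19bp1, 9210 bp from Atf4. All 5 peaks recurred in MAC PU.1, where 97.0% of the HP PU.1 list did.

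The Asns intronic peak held the PU.1 sequence GAGGAAGT 12 bp from its HP centre and 8 bp from its MAC centre. The 80 bases around the HP centre (chr6:7690671-7690750, minus strand) carry it on the opposite strand, in capitals.
Asns intron: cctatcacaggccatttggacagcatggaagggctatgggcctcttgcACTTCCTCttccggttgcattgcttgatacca
The other HP PU.1 peak with these letters was at Psat1, 20782 bp downstream of the start, and 2 of 5 peaks compare with 42.1% of the HP PU.1 list.

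In MAC, PU.1 had 40 peaks at the 10 genes and fell at all 10, against 75.2% of coding genes. C/EBPβ and PU.1 were both present in the windows of all 10, against 64.7% of coding genes. Within the windows 16 of 36 C/EBPβ peaks overlapped a PU.1 peak, against 42.5% of the MAC C/EBPβ list, and 16 of 40 PU.1 peaks overlapped a C/EBPβ peak, against 28.5%. With centres within 100 bp required, 9 of 36 C/EBPβ peaks did so, against 28.0% of the list, and 9 of 40 PU.1 peaks, against 18.7%. At Trib3 and Ddit3 the MAC PU.1 centres lay 77 bp downstream and 196 bp upstream of the start, beside the C/EBPβ centres, and a further Trib3 window peak lay 10 bp from the start of Rbck1. Sesn2 had the most PU.1 peaks, 7, of which 1 was centred on its start (0 bp), and Nupr1 the fewest, 1, at 3384 bp. Of the 96 peaks, 76 were from the MAC lists (79.2%), as were 87.3% of all peaks.

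The remaining factors met few of the 10 genes. GATA2 in HP had a peak at Ddit4 and at Psat1, 2 of 10 against 2.44% of coding genes, and GATA1 in HP at Psat1 alone, 1 of 10 against 1.27%. GFI1B in HP had 1 peak, 3877 bp from the start of Nupr1, against 9.12% of coding genes. None of the 10 had a peak of RUNX1 in HP (5.99% of coding genes), RUNX1 in MAC (0.358%), GATA2 in HB (0.303%) or ELK4 in MES (3.56%). With a 50 kb window GFI1B met 3 (19.0%) and ELK4 2 (7.66%). By the nearest coding start GFI1B met 2 (8.12%), and with regions in at least 2 lists 0 (5.39%). Counts of 0 to 3 genes are too small to rank these lists. The study's PCR check also listed no enrichment for the HB GATA2 and MAC RUNX1 samples.

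Psat1, the serine synthesis enzyme, had peaks of 4 factors at its promoter. The region chr19:15924738-15925393 was found in 5 lists. The HP GATA2 centre lay 50 bp and the HP GATA1 centre 53 bp upstream of the start, the HP PU.1 and MAC PU.1 centres 110 and 121 bp downstream, and the MAC C/EBPβ centre 135 bp upstream. None of these peaks held the GATA letters AGATAA, which were in 57.9% of the HP GATA2 list and 64.0% of the HP GATA1 list. The 200 bases upstream of the start (chr19:15925060-15925259, minus strand), which hold both GATA centres, are given so that the letters can be read, with no match to AGATAA, CARE or TTGCNNAA to capitalise.
Psat1 upstream: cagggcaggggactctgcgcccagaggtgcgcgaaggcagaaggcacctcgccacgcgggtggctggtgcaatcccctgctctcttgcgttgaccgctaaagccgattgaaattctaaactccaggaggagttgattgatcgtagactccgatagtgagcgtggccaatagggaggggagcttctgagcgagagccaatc
The Ddit4 GATA2 peak differed. It lay 2956 bp downstream of the start, beyond the end of the gene, and held the RUNX letters TGTGGTT 1 bp from its centre and AGATAA 22 bp from it, both on the strand opposite to the one printed (chr10:59948774-59948853, minus strand).
Ddit4 downstream: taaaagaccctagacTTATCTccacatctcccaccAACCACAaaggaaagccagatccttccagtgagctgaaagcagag

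The peaks of the 10 genes merged into 61 regions, of which 20 were in at least 2 lists (32.8%, against 28.0% of all 117293 regions). Ddit3, Trib3 and Psat1 each had peaks in 5 lists, as 7.13% of coding genes had in 5 or more. The exact set of lists of Ddit3 and Trib3 (C/EBPβ in MES, HB, HP and MAC and PU.1 in MAC) was shared by 137 other coding genes for each of them, and that of Psat1 by 13.

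A further 54 genes of the same pathways, in 5 lists also chosen with earlier results of these data known, were counted in the same way. MES C/EBPβ fell at 10 of them (18.5%), HB at 5 (9.26%), HE at 0, HP at 20 (37.0%) and MAC at 52 (96.3%), each share but that of HE above that of coding genes and, in MES, HB and HP, below that of the 10. By list, MES C/EBPβ met 2 of 12 genes of eIF2α signalling and its factors, 2 of 12 genes of amino acid synthesis, 2 of 10 amino acid transporters, 1 of 8 nutrient signalling and secreted factors and 3 of 12 genes of the unfolded protein response in the endoplasmic reticulum. HP C/EBPβ met 2, 4, 5, 3 and 6 of the same lists. Coding genes stood at 4.96% in MES and 11.3% in HP, and no single list was tested against them. HP PU.1 met 27 of the 54 (50.0%), against 30.8% of coding genes.

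Of the 54, 8 had C/EBPβ at 3 or more stages, as 4.12% of coding genes had. Got1, the cytosolic aspartate aminotransferase, had its centre 100 bp upstream of the start in MES, 104 bp in HB, 107 bp in HP and 105 bp in MAC. Slc1a4, a transporter of neutral amino acids, had it 11 and 9 bp downstream in MES and HB, 2 bp upstream in HP and 6 bp downstream in MAC. Pycr1, the last enzyme of proline synthesis, had it 105, 122, 50 and 104 bp upstream in the same order. Herpud1, an endoplasmic reticulum stress protein, had it 144, 131, 118 and 117 bp upstream. These 4 genes resembled Ddit3 and Trib3 in carrying a promoter peak at 4 stages.

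Slc7a5, a transporter of large neutral amino acids, had C/EBPβ 9101 bp downstream of the start in MES, 9059 bp in HB and 9092 bp in HP, with its nearest MAC centre 316 bp upstream. Cebpg, a C/EBP partner of ATF4, had centres 349 bp downstream in MES, 72 bp in HP and 379 bp in MAC. Gdf15, a stress hormone, had them 1468, 1471 and 1480 bp downstream in these 3 stages. Edem1, a factor of protein degradation from the endoplasmic reticulum, had its nearest centres at 28298, 12321 and 1080 bp, that is at separate places.

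CARE was found in 6 of the 11 MES C/EBPβ peaks of these 54 genes, at Cebpg, Pycr1, Got1, Slc7a5, Slc1a4 and Herpud1, in all 5 HB peaks and in 12 of 23 HP peaks, beside 10.2%, 8.53% and 11.9% of the lists. The C/EBP letters were in 4 of the 11, 1 of the 5 and 9 of the 23, beside 61.3%, 59.2% and 64.0%. The nearest match lay 1 bp from the MES centre at Got1, 5 bp at Pycr1, 12 bp at Slc1a4, 14 bp at Slc7a5, 20 bp at Cebpg and 36 bp at Herpud1. The MES peaks of Gdf15, Edem1, Ern1 and Ppp1r15a and a second one of Pycr1 held none.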

How the data were processed

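The deposited files were 14 peak lists, each giving only chromosome, start and end of 400 bp peaks in bp (a coordinate and no other measure). Per the study's methods, the authors trimmed reads with CutAdapt, aligned them to mm10 with Bowtie, kept unique reads, removed duplicates with Picard, called peaks with MACS against input and refined them with polyPeak; bedtools is also named in the submitters' processing notes. Tool versions are not given in the sources used here, read depth was not analysed here, and some samples merged technical runs. With thresholds set by eye and no scores, a list cannot be made stricter.

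A gene had a peak when 1 bp or more overlapped its RefSeq span (GRCm38.p6) extended by 10 kb each side. Distances run from the RefSeq gene start to the peak centre. Peaks of all lists overlapping by 1 bp formed regions. Motif letters were searched in the reference of strain C57BL/6J. Intervals are exact Clopper-Pearson at 95%, for counting error only. With 1 sample per list no test was made. Every gene of the list is named. Of the other pathway lists, those with C/EBPβ at 3 or more stages are named, and Ern1 and Ppp1r15a for their MES C/EBPβ peaks. Genes with the same set of lists were to be named only when at most 10 tied. The members, lists and motifs were chosen with earlier results of these data known. Python 3.11.15, NumPy 2.4.6, pandas 2.3.3, SciPy 1.17.1, Matplotlib 3.10.9 and samtools 1.23.1 were used, and the overlap and motif counting was tested on simulated data. Alternatives were windows of 5, 2 and 50 kb, 10 kb around the start, the nearest coding start, regions in at least 2 lists, all RefSeq genes as background, 200 bp overlap, centres within 100 bp, stricter motifs and the central 200 bp.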

Additional observations from a re-analysis of the deposited data

How the results depend on the processing

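Of 152 recomputed counts, 135 stayed within 1.5 times the reported one and 17 moved further. The 135 include counts that were 0 in every setting, such as those of HE C/EBPβ and MAC RUNX1, and MAC counts at or near all 10 genes. They therefore say little about the stability of the other counts. With the nearest coding start deciding the gene, C/EBPβ fell to 3 of the 10 genes in MES (5.01% of coding genes), 1 in HB (3.08%), 3 in HP (10.4%) and 9 in MAC (64.0%), because the Ddit3 peak lies nearer to Mbd6. In that setting HP PU.1 met 5 genes (29.5%), with Atf3 and Ddit4 added and Atf4 lost, and HP GFI1B 2 (8.12%). With a 50 kb window, HP PU.1 met 10 genes (53.1% of coding genes), HP GFI1B 3 (19.0%) and MES ELK4 2 (7.66%). The C/EBPβ counts of 4 in MES and HP were also 4 at 2, 5 and 50 kb and around the start, while the share of coding genes at 50 kb rose to 10.5% and 23.4%, so that the contrast was smaller there. With regions in at least 2 lists HP GFI1B met 0 (5.39% of coding genes).

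Requiring centres within 100 bp, the MAC C/EBPβ peaks on MAC PU.1 peaks fell from 16 to 9 of 36 (28.0% of the list), the reverse count to 9 of 40 (18.7%), and the HP C/EBPβ peaks on MAC PU.1 from 4 of 5 (52.5% of the list) to 2 of 5 (33.2%). With the stricter CARE (TGATGCAA), a match was in 3 of 4 MES peaks (6.20% of the list), 1 of 2 in HB (5.73%), 3 of 5 in HP (7.33%) and 7 of 36 in MAC (5.31%). With the stricter C/EBP letters, it was in 0 peaks in MES (35.8%), HB (38.6%) and HP (32.6%), and in 5 in MAC (13.2%). Of the 54 other genes, with 10 kb around the start HP GATA2 met 3 instead of 5 (1.38% of coding genes) and HP GATA1 1 instead of 2 (0.679%). Apart from these counts, with all 49635 RefSeq genes as background 13 of the 14 shares of genes with a peak were lower (MES C/EBPβ 3.21%) and that of HE C/EBPβ was higher (0.778%), and 9 of the 14 moved by over 1.5 times.

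No paired analysis was possible because each factor and stage was 1 list. No replicate exists to leave out. Peaks carry no height, so a missing peak cannot be told from one under the threshold, and a peak cannot be assigned to 1 of 2 overlapping genes.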

Other observations

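All coding genes with a CARE-holding C/EBPβ peak centred within 500 bp of the start were listed. There were 29 such genes in MES, 13 in HB, a single one in HE and 50 in HP, and 24 (0.110% of coding genes) were found in MES, HP and MAC together, among them Atf3, Ddit3, Trib3 and Chac1. The remainder of the 24 included Got1, Pycr1, Slc1a4 and Herpud1, described above, Mbd6, which shares the Ddit3 peak, Iars, Mars1, Nars and Yars, and 11 genes of other kinds (2810408A11Rik, Bcl6, Btf3l4, Cbx3, H4c14, Hnrnpa2b1, Neurl4, S100pbp, Sh3bp5l, Zfp266 and Zfp672). Iars, Mars1, Nars and Yars encode cytosolic aminoacyl-tRNA synthetases, the enzymes that charge tRNA with amino acids.

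The 20 genes for cytosolic aminoacyl-tRNA synthetases were then counted. This family was chosen after these names were seen in a list that required CARE in a C/EBPβ peak. Its counts are therefore a description, and its share of peaks with CARE was partly set by that choice. C/EBPβ fell in the 10 kb windows of 7 of the 20 in MES (Aars, Cars, Iars, Mars1, Nars, Sars and Yars), 5 of the 20 in HB, 1 (Aars) in HE, 9 of the 20 in HP and all 20 in MAC, beside 4.96%, 3.2%, 0.477%, 11.3% and 67.9% of coding genes. The MES peaks of all 7 held CARE, with the match 7 bp from the centre at Yars, 11 bp at Iars, 16 bp at Sars, 22 bp at Aars, 23 bp at Cars and 60 bp at Nars. Over these windows CARE was in 8 of 8 C/EBPβ peaks in MES, 4 of 5 in HB, 0 of 1 in HE and 9 of 12 in HP, beside 10.2%, 8.53%, 1.52% and 11.9% of all peaks of these lists. These counts include peaks near Ddit3 that lie in the window of Mars1: 1 of its 2 MES peaks, its only HB peak and 2 of its 3 HP peaks. The other MES peak of Mars1, 94 bp downstream of its own start, held CARE 39 bp from the centre. At Iars the C/EBPβ centre lay 22, 16 and 12 bp downstream of the start in MES, HB and HP.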
